A study of Mus musculus with 8 samples.

Results

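Mitochondria carry their own ribosome, which reads the few messages of mitochondrial DNA and makes core subunits of the respiratory chain and of ATP synthase. Its RNA comes from mitochondrial DNA, but every one of its proteins is encoded in the nucleus, made in the cytosol and imported. A large subunit joins amino acids and a small subunit decodes the message. Brown adipose tissue burns fuel to make heat and is rich in mitochondria. The genes described here are those whose symbol begins with Mrpl (large subunit) or Mrps (small subunit) followed by a number. This rule was met by 76 of the 22552 genes measured, 47 of the large and 29 of the small subunit. The rule used no measured value.

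Brown adipose tissue was taken at 2 months of age from mice of mixed 129SV::FVB/N::C57BL/6 background. WT mice were mmu-mir-193b +/+ and Null mice were mmu-mir-193b -/-, which lack mir-193b and its neighbour mir-365-1, and the labels name no treatment in either group. The floxed allele was deleted with an MMTV-Cre transgene that breeding then removed. The labels describe 3 WT and 3 Null mRNA samples, which the authors combined into 1 FPKM value per genotype, called a pool below, WT or Null. FPKM counts fragments per length of transcript and per mapped fragment, so levels can be compared between genes. Without values per library there is no spread between mice, so no difference below has a replicate check and none was tested. Differences are given as the log2 ratio, log2((Null + 1)/(WT + 1)) of FPKM, which understates the change of low genes. The depth of the libraries is unknown.

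The genotype labels of the microRNA libraries, 1 per genotype, were checked. The level of miR-193b-3p was 3705 RPM for WT and 11.5 RPM for Null, and that of miR-365-1-5p 11.8 and 0.0821 RPM. These libraries are separate from the mRNA samples, so the labels of the FPKM columns were not checked by them. All 12 brown fat markers were measured, Ucp1 at 3016 FPKM in the WT pool and 2487 FPKM in the Null pool among them. Of these 12 markers 5 were higher and 7 lower in Null. Their summed level was 37685 FPKM in the WT pool and 47821 FPKM in the Null pool. Most of each sum was Fabp4 alone, at 27294.5 FPKM for WT and 34679.4 FPKM for Null. By contrast, the middle of the 12 log2 ratios, their median, was -0.14. Their log2 ratios ran both ways, up to 1.02 for Cox7a1 and 0.71 for Adipoq and down to -2.27 for Elovl3 and -0.97 for Dio2. Markers of other cells differed between the pools. Of 12 skeletal muscle markers 11 were lower in Null, with a summed level of 2998 FPKM in the WT pool and 2050 FPKM in the Null pool. Of the 9 macrophage and leukocyte markers measured, out of 11, 8 were higher, with a summed level of 60.2 and 119 FPKM. Of 6 endothelial markers 5 were higher, with a summed level of 212 and 227 FPKM. No measured marker of these lists was at 0, and the part of other cells in the values below was not tested. In whole tissue, fewer cells of a type and less RNA per cell cannot be told apart.

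Messages of the mitochondrial ribosome were, as a group, slightly more abundant in Null brown fat with FPKM as deposited. Over the 2 pools, 75 members averaged 1 FPKM or more. Of these, 64 were higher in Null and 11 lower, where 50.6% of all 11597 genes at that level were higher and 49.4% lower. The median log2 ratio was 0.21, against 0.01 over all those genes. By 1.5-fold or more, 11 members were higher, or 14.7%, beside 7.87% of all genes. None was lower by that much, beside 6.75% of all genes, and none was higher or lower by 2-fold, beside 2.17% and 1.65% of all genes. Abundant genes leaned the same way. Among the 1593 genes that averaged 50 FPKM or more, 63.1% were higher and 16.6% were higher by 1.5-fold or more. Their median log2 ratio was 0.12. The members' share of 14.7% was not above that of these abundant genes, although 25 members averaged less than 50 FPKM. Summed over the 76 members the level was 1.29 times as high in Null as in WT, and the sum over all genes was 1.16 times as high.

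That difference in column sums bears on the direction. Scaled to the same sum, 39 members were higher and 36 lower, with a median of 0.00, in a setting where the median of all genes moved to -0.19. Relative to all genes the members' median was 0.19 there and 0.21 with FPKM as deposited. With quantile normalization 53 members were higher and 22 lower, with a median of 0.19. The members higher were 52.0% with the same sum, beside 30.6% of all genes. With quantile normalization they were 70.7%, beside 49.7% of all genes. The members' median, and the share of members higher in Null, were therefore above those of all genes in each of these scalings. The count of members higher than in WT depended on the scaling. Members made up 1.23% of the summed FPKM in WT and 1.37% in Null.

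**Figure D1:**
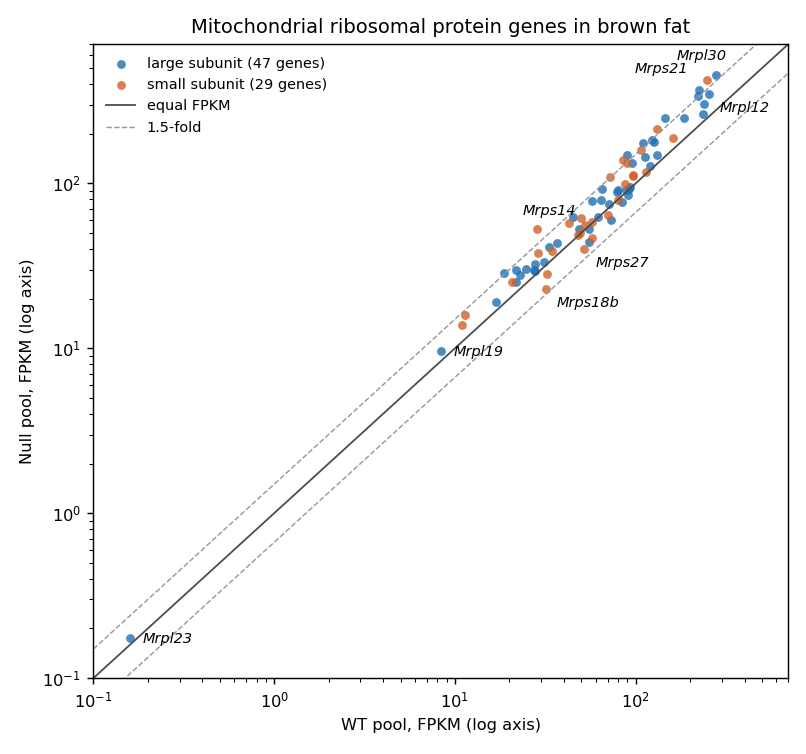
FPKM of each of the 76 mitochondrial ribosomal protein genes in the WT pool (horizontal) and the Null pool (vertical), both on log axes, coloured by subunit; the solid line marks equal FPKM and the dashed lines 1.5-fold. Most points lie between the equal line and the upper dashed line, and Mrpl23 stands apart near 0.2 FPKM.

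The members were abundant messages. The 75 measured members ran from 9.01 to 367 FPKM in the mean of the pools, and their median member stood at or above 90.3% of all measured genes. Levels differed 40.7-fold between the highest and the lowest of them, and 8.22-fold between the upper and the lower decile, although most of these proteins are present as a single copy per ribosome. The order of the members was much the same in both pools, with a Pearson r of 0.97 between log2 levels over the 75 genes, a description across genes that share the same 2 pools.

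Mrpl30, a large subunit protein with a bacterial counterpart, was the most abundant member at 279 FPKM in the WT pool and 455 FPKM in the Null pool. Mrps21, the counterpart of bacterial S21, followed at 248 and 424 FPKM. Mrpl12, which forms the stalk that brings translation factors to the ribosome, was at 254 and 350 FPKM. All 3 were more abundant in the Null pool. Mrpl33 was at 225 and 367 FPKM and Mrpl34 at 222 and 336 FPKM, both small basic proteins of the large subunit.

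At the other end, Mrpl19 was the lowest measured member, at 8.35 FPKM in the WT pool and 9.67 FPKM in the Null pool. Mrps25 was at 10.9 and 13.9 FPKM, Mrps33 at 11.4 and 15.8 FPKM and Mrpl17 at 16.8 and 19.2 FPKM. These 4 low members were also higher in Null, though by under 1.5-fold. Mrps36 was at 20.8 and 25.3 FPKM. This protein was first assigned to the small subunit by its name and is now known as a subunit of the oxoglutarate dehydrogenase complex.

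Mrpl23 alone fell under the level of 1 FPKM, at 0.158 FPKM in the WT pool and 0.176 FPKM in the Null pool, and is left out of the counts of measured members. The nearest member above that level was Mrpl19, at a mean of 9.01 FPKM, so no member lay close to the limit. RefSeq lists a pseudogene of Mrpl23, and also pseudogenes of Mrpl27, Mrpl48 and Mrps36. How the authors' counting treated fragments shared with such copies is not given in the sources used here, so the levels of these 4 genes are uncertain.

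The 2 subunits differed little in their medians. The 46 measured large subunit genes had a median log2 ratio of 0.23, with 41 higher and 5 lower, and the 29 small subunit genes a median of 0.21, with 23 higher and 6 lower. The large subunit median was 0.02 above the small subunit median. By 1.5-fold or more, 6 large subunit genes (13.04%) and 5 small subunit genes (17.24%) were higher. Of all genes 7.87% were higher by that much, and of genes that averaged 50 FPKM or more 16.6% were. The summed level was 4214 FPKM in the WT pool and 5466 FPKM in the Null pool for the large subunit, and 2049 and 2602 FPKM for the small. These were 1.30 and 1.27 times the WT sums. Structures of the ribosome place Mrps30 and Mrps18a in the large subunit despite their names, and counting them there gave medians of 0.23 and 0.20. With quantile normalization the small subunit median was 0.07 and the difference 0.13. Scaled to the same sum, the large subunit median was 0.02 and the small subunit median -0.00303.

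**Figure D2:**
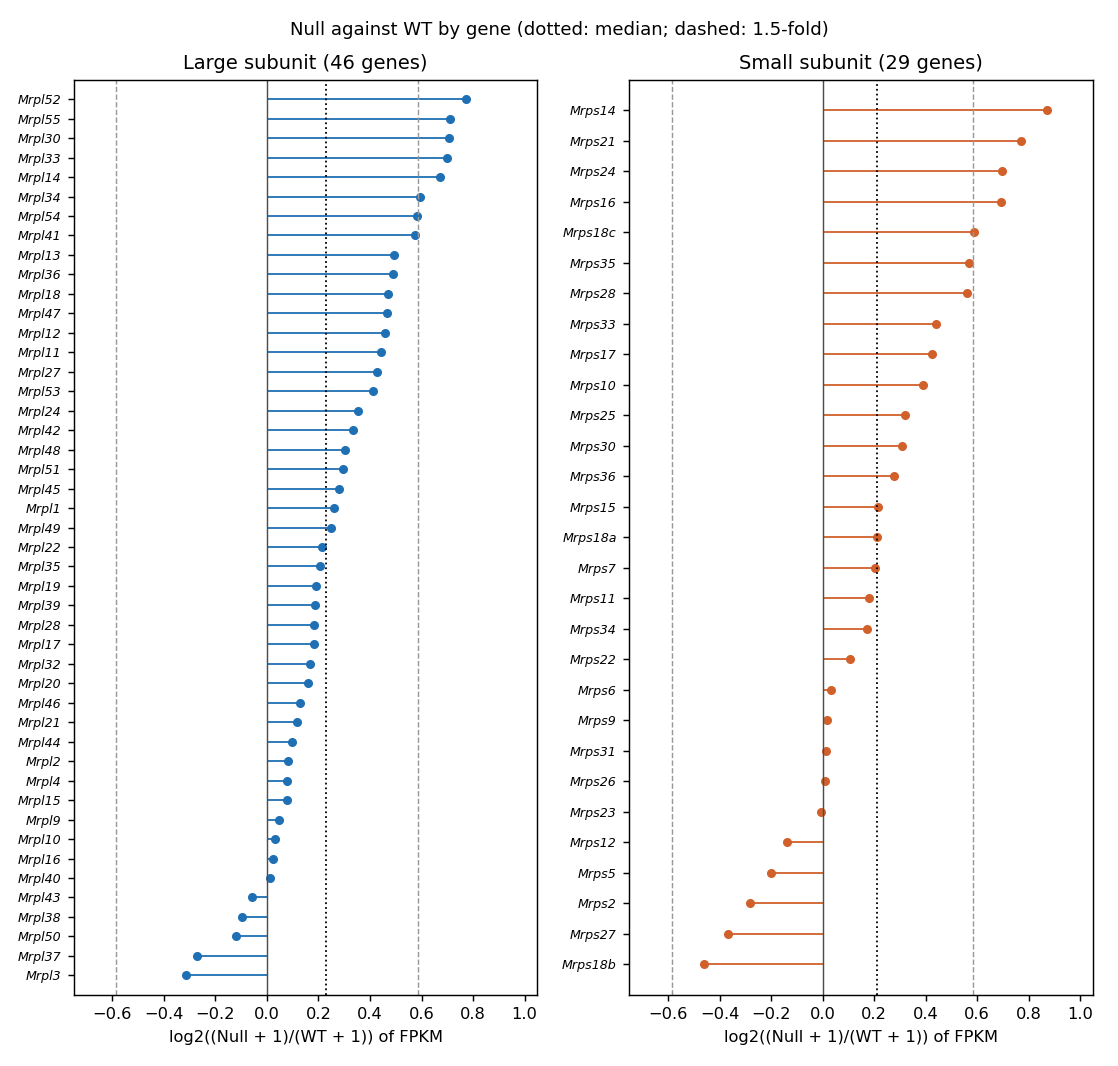
Log2 ratio of Null to WT for each measured gene of the large subunit (46 genes, left) and the small subunit (29 genes, right), in falling order; dotted lines mark the subunit medians and dashed lines 1.5-fold. Of the genes, 6 on the left and 5 on the right lie past the upper dashed line and none past the lower.

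Among small subunit genes the range was widest. Mrps14, the counterpart of bacterial S14 in the head of the subunit, had the highest ratio of all members, at 28.4 FPKM in the WT pool and 52.8 FPKM in the Null pool, a log2 ratio of 0.87. Mrps21 had a ratio of 0.77. Mrps24 was at 85.3 and 139 FPKM (0.70) and Mrps16, mutated in an inherited respiratory chain disorder, at 131 and 213 FPKM (0.69). These 4 and Mrps18c were the small subunit genes higher by 1.5-fold or more. With the columns scaled to the same sum, Mrps14 was the only member still higher by that much, at 0.67, beside 4.56% of all genes.

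The 2 lowest ratios of all members were also in the small subunit. Mrps18b was at 31.9 FPKM in the WT pool and 22.9 FPKM in the Null pool, a log2 ratio of -0.46. Mrps27, an RNA-binding protein of the pentatricopeptide repeat family, was at 52.0 and 40.0 FPKM (-0.37). Other small subunit genes lower in Null were Mrps2, the counterpart of bacterial S2, at 57.2 and 46.9 FPKM (-0.28), and Mrps5, which lies near the entry of the message, at 32.4 and 28.1 FPKM (-0.20). None of them was lower by 1.5-fold with FPKM as deposited. Mrps18b and Mrps27 were lower by that much with the columns scaled to the same sum, at -0.68 and -0.59. In that setting 15.8% of all genes were lower by that much.

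Mrps12, a protein of the decoding centre that governs the accuracy of reading, was lower in Null, at 70.7 FPKM in the WT pool and 64.1 FPKM in the Null pool (-0.14). Mrps7, which helps to build the head of the small subunit, was at 97.0 and 112 FPKM (0.20). Mrps22, also mutated in inherited disease, was at 52.2 and 56.2 FPKM (0.10). All 3 of these differed by well under 1.5-fold. Mrps30 was at 49.7 and 61.9 FPKM (0.31).

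Mammals have 3 paralogs of bacterial S18, whose ratios spread over most of the range of the subunit. Mrps18a was at 96.2 FPKM in the WT pool and 111 FPKM in the Null pool (0.21). Mrps18b was lower in Null (-0.46), as given above. Mrps18c was at 72.5 and 109 FPKM (0.59). As deposited, Mrps18c was thus higher by 1.5-fold and Mrps18b was the lowest member of all.

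In the large subunit, Mrpl52, which has no bacterial counterpart, had the highest ratio, at 146 FPKM in the WT pool and 250 FPKM in the Null pool (0.77). Mrpl55 was at 90.0 and 148 FPKM (0.71). Mrpl30 and Mrpl33 had ratios of 0.71 and 0.70. Mrpl14 was at 109 and 175 FPKM (0.67), and Mrpl34 had a ratio of 0.60. These were the 6 large subunit genes past 1.5-fold. Just inside that limit, which was set with 1 FPKM added to each value, stood Mrpl54, at 123 and 184 FPKM (0.58), and Mrpl41, at 18.8 and 28.5 FPKM (0.57). The plain ratio of Mrpl41 was 1.51, and with 0.1 FPKM added instead 12 members were past 1.5-fold.

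The lowest ratio of the large subunit was that of Mrpl3, a protein close to the centre that joins amino acids and mutated in inherited cardiomyopathy, at 55.3 FPKM in the WT pool and 44.3 FPKM in the Null pool (-0.31). Mrpl37 was at 72.6 and 60.0 FPKM (-0.27) and Mrpl50 at 83.9 and 77.2 FPKM (-0.12). Mrpl38 (-0.10) and Mrpl43 (-0.06) were the other 2 large subunit genes lower in Null. With FPKM as deposited, all 5 stayed within 1.5-fold.

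Genes of the stalk, where translation factors dock, did not share a single ratio. Mrpl12 had a ratio of 0.46. Mrpl11, at the base of the stalk, was at 21.7 FPKM in the WT pool and 29.8 FPKM in the Null pool (0.44). Mrpl10, which anchors Mrpl12, was at 93.0 and 95.2 FPKM (0.03). The first 2 were therefore above the large subunit median of 0.23 and Mrpl10 was below it. Mrpl32, which the protease containing Afg3l2 trims before assembly, was at 79.0 and 88.7 FPKM (0.17), and Mrpl44, mutated in inherited cardiomyopathy, at 31.3 and 33.5 FPKM (0.10).

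The mitochondrial ribosome combines proteins inherited from bacteria with proteins added later. The 46 measured members with a bacterial counterpart had a median log2 ratio of 0.21 and the 28 without had a median of 0.22. By 1.5-fold or more, 10 of the former (21.7%) and 1 of the latter (3.57%), Mrpl52, were higher, beside 7.87% of all genes. The former also had the higher median level in the WT pool, 79.6 FPKM against 53.8 FPKM. With the columns scaled to the same sum only Mrps14, of the former, was higher by that much, beside 4.56% of all genes. With quantile normalization only Mrps14 and Mrpl52 were, beside 7.29% of all genes. Mrps36 belonged to neither group.

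The most abundant members had the highest ratios as a band. The 25 members at 100 FPKM or more had a median log2 ratio of 0.49, and with FPKM as deposited none was lower in Null and 9 were higher by 1.5-fold or more. The 25 members from 50 to 100 FPKM had a median of 0.08, with 7 lower by any amount and 1 higher by that much, and the 25 under 50 FPKM a median of 0.21, with 4 lower by any amount and 1 higher by that much. Over all genes the medians in these bands were 0.18, 0.08 and -0.01, and 22.3%, 11.2% and 6.48% were higher by 1.5-fold or more. By median, the middle band therefore stood at the level of all genes in its range, and the upper and the lower bands stood above theirs. By the share higher by 1.5-fold or more, only the upper band stood above its range. The middle and the lower bands, with 1 of 25 each, stood below theirs. The bands were cut on a mean that includes the Null value. Over the 75 members, Spearman's rho between ratio and mean level was 0.36, and over all 11597 genes it was 0.07. Both are descriptions across genes. The counts moved with the scaling. With the columns scaled to the same sum the upper band had a median of 0.28, with 6 of 25 lower by any amount and 0 higher by 1.5-fold or more, and the other bands had medians of -0.13 and 0.00. With quantile normalization the upper band had a median of 0.33, with 3 lower by any amount and 1 higher by that much, and the other bands had medians of -0.03 and 0.19.

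The spread of ratios among members depended on how it was measured. The SD of the log2 ratio was 0.29 over members and 0.57 over all genes. The SD over all genes rests partly on extreme ratios, which reached -6.57 and 10.68. The median absolute deviation, which such genes hardly touch, was 0.20 over members and 0.24 over all genes. Within 1.5-fold lay 85.3% of members and 85.4% of all genes, the same share to within 1 gene of the set. Small subunit genes had an SD of 0.34 and large subunit genes of 0.26.

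Proteins of the mitochondrial ribosome under other symbols were examined beside the members, since the rule goes by symbol. Of 6 such genes 4 were higher in Null, and the list's median log2 ratio was 0.54. Chchd1 was at 162 FPKM in the WT pool and 291 FPKM in the Null pool (0.84). Gadd45gip1 was at 46.7 and 70.0 FPKM (0.57), Aurkaip1 at 239 and 348 FPKM (0.54), and Ict1, a ribosomal protein that can release stalled chains, at 86.4 and 126 FPKM (0.54). Of these, Chchd1 alone passed 1.5-fold. Dap3, which binds GTP, was at 19.8 and 19.1 FPKM (-0.05), and Ptcd3, like Mrps27 a pentatricopeptide repeat protein, at 46.7 and 35.1 FPKM (-0.40). The large subunit gene Mrpl57, listed as Mrp63, was at 14.6 and 22.3 FPKM (0.58).

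Lists of enzymes and factors that work with the ribosome stood lower than the ribosome itself. They were also less abundant. Median WT levels were 20.1 FPKM for transfer RNA charging, 26.0 FPKM for translation factors, 17.2 FPKM for assembly factors and 70.7 FPKM for members. Over all genes under 50 FPKM the median log2 ratio was -0.01. Of 22 genes with a part in making charged mitochondrial transfer RNAs 16 were lower in Null and 6 higher, where 49.4% of all genes were lower. Their median log2 ratio was -0.12. None passed 1.5-fold, beside 7.87% of all genes higher and 6.75% lower by that much. Iars2 was at 75.5 FPKM in the WT pool and 53.4 FPKM in the Null pool (-0.49), Sars2 at 11.2 and 7.87 FPKM (-0.46) and Vars2 at 11.9 and 8.58 FPKM (-0.43), which charge isoleucine, serine and valine. The 3 highest were Pars2 (0.15), Kars (0.13) and Yars2 (0.07). With the columns scaled to the same sum, all 22 were lower, 5 of them (22.7%) past 1.5-fold, beside 15.8% of all genes.

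Of 15 translation factors and regulators of mitochondrial messages 11 were lower in Null, with a median of -0.12. Taco1, an activator of cytochrome oxidase subunit synthesis, was at 44.9 FPKM in the WT pool and 23.9 FPKM in the Null pool (-0.88). Gfm1, an elongation factor, was at 82.7 and 49.3 FPKM (-0.73). Both were lower by more than 1.5-fold, or 13.3% of the list beside 6.75% of all genes. Gfm2, which recycles ribosomes, was at 33.4 and 25.7 FPKM (-0.37). Slirp, which stabilizes mitochondrial messages and is listed under an older symbol, had the highest ratio, at 178 and 411 FPKM (1.20). Its partner protein Lrpprc was at 47.0 and 36.9 FPKM (-0.34), so the genes of this complex differed in opposite directions. Guf1 (0.08) and Mrrf (0.08), a ribosome recycling factor, came next to Slirp.

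Factors that assemble the ribosome or modify its RNA numbered 21, of which 13 were higher and 8 lower, with a median of 0.07. With the columns scaled to the same sum, 6 were higher and 15 lower, with a median of -0.15. Of the lower, 1 was past 1.5-fold, or 4.76% of the list beside 15.8% of all genes. With 1 FPKM added to each value, none passed 1.5-fold. Gtpbp10 was at 4.36 FPKM in the WT pool and 7.02 FPKM in the Null pool (0.58, or a plain ratio of 1.61), and it was the 1 gene of the list past 1.5-fold with 0.1 FPKM added instead. C1qbp was at 118 and 170 FPKM (0.51) and Malsu1, listed under an older symbol, at 47.1 and 63.8 FPKM (0.43). The lowest were the helicase Dhx30 (15.6 and 11.8 FPKM, -0.37), Mpv17l2 (52.3 and 41.6 FPKM, -0.32) and the protease subunit Afg3l2 (110 and 90.8 FPKM, -0.27). The last trims Mrpl32, whose own ratio was 0.17.

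Other protein complexes with many small subunits stood higher than the mitochondrial ribosome. Genes of respiratory complex I were taken by symbol (Ndufa, Ndufb, Ndufc, Ndufs or Ndufv with a number), which is not the full complex. These 36 genes had a median log2 ratio of 0.64, with 20 (55.6%) higher by 1.5-fold or more. The 63 cytosolic ribosomal protein genes had a median of 0.90, with 48 (76.2%) higher by that much. The members' median of 0.21 lay below both. Of all genes 7.87% were higher by 1.5-fold or more. Levels differed too, with WT pool medians of 545 FPKM for complex I, 29.3 FPKM for the cytosolic genes and 70.7 FPKM for members. Over all genes at 100 FPKM or more the median log2 ratio was 0.18, and 22.3% were higher by 1.5-fold or more. With the columns scaled to the same sum, the median for complex I was 0.43, and 9 of its genes were higher past 1.5-fold and 1 lower. With quantile normalization that median was 0.37, and 8 genes were higher past 1.5-fold and 1 lower. The cytosolic genes higher by that much numbered 41 and 47 in these settings. Relative to all genes the medians of complex I, the cytosolic genes and the members were 0.62, 0.98 and 0.19 with the columns scaled to the same sum. Cytosolic ribosomal protein genes share sequence with many copies and are uncertain. Transcript lengths were not used here, so no comparison by length was made.

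**Figure D3:**
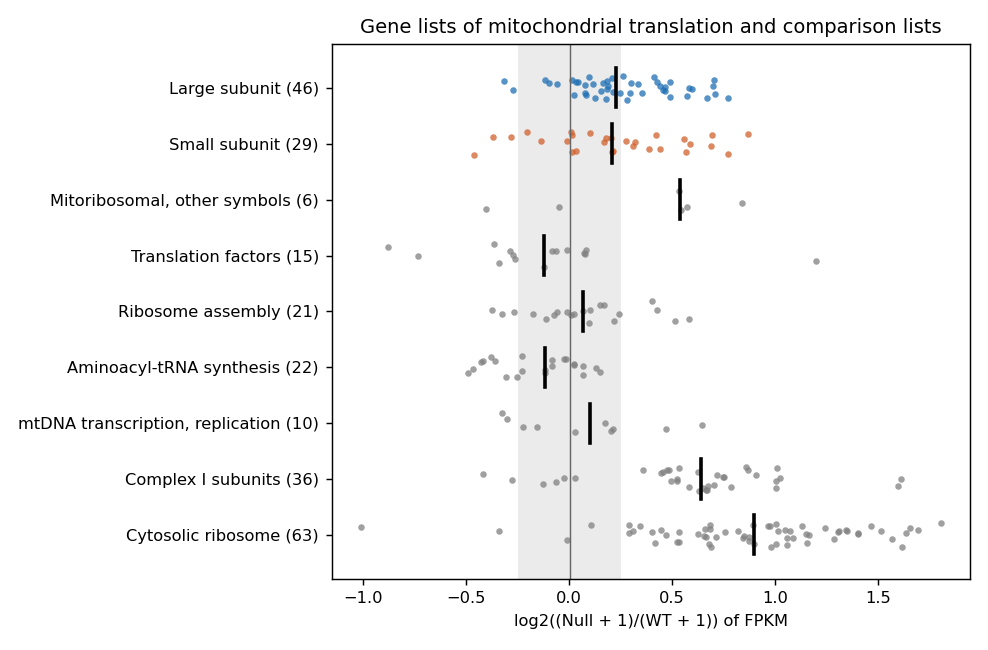
Log2 ratio of Null to WT for each measured gene (points, spread vertically for display) of the 2 ribosomal subunits, of lists of mitochondrial translation and DNA genes, of complex I and of the cytosolic ribosome, with the number of genes in brackets. Black bars mark list medians, and the grey band and thin line mark the middle 50% and the median of all 11597 genes; the bars of both subunits lie right of the line and those of translation factors and aminoacyl-tRNA synthesis left of it.

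Promoters of the members were then examined for letters that known regulators of mitochondrial genes bind. RefSeq promoter windows (GRCm38.p6, from 250 bases before to 50 bases after a gene's start) matched 67 of the 76 members by symbol, with 73 windows in all. Mrpl4, Mrpl13, Mrpl15, Mrpl19, Mrpl38, Mrpl54, Mrps28, Mrps34 and Mrps35 had no window. CCGGAAG, a core of the sites of GABPA and other ETS factors, stood in 24 of the 73 windows on either strand, or 32.9%, beside 8.86% of all 32851 windows and 17.4% of the 10460 windows of measured genes. GCATGCGC, part of the NRF1 site, stood in 8 windows, or 11.0%, beside 2.71% and 5.33%. AAGATGGC, part of the YY1 site, stood in 12, or 16.4%, beside 2.75% and 4.39%. No string contains another. A match of letters is a description and not a bound site.

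The windows with and without such letters did not part the members by ratio. The 24 measured members with CCGGAAG had a median log2 ratio of 0.25 and ran from -0.46 to 0.77, and the 42 without had a median of 0.21 and ran from -0.28 to 0.87. The 8 members with GCATGCGC had a median of 0.17 against 0.27 for the 58 without. The 12 members with AAGATGGC had a median of 0.20 against 0.27 for the 54 without. Members at both ends of the order, Mrpl52 and Mrps18b for example, held CCGGAAG.

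Mrps18b and Mrps18c show this within a family, and their windows are printed with the letters searched for in capitals, on whichever strand they lie. Mrps11 and Mrps12 are shown because each starts next to a gene of the same system read in the opposite direction. Sequences are from RefSeq, build GRCm38.p6, and run in the direction of the named gene.
Mrps18b, chr17:35916391-35916690, minus strand: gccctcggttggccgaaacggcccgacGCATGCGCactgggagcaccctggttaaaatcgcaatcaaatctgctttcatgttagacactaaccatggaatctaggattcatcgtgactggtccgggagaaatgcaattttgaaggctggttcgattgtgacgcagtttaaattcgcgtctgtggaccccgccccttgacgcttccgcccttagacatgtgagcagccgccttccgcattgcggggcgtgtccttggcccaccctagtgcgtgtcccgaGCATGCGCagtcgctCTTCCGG
Mrps18c, chr5:100798509-100798808, plus strand: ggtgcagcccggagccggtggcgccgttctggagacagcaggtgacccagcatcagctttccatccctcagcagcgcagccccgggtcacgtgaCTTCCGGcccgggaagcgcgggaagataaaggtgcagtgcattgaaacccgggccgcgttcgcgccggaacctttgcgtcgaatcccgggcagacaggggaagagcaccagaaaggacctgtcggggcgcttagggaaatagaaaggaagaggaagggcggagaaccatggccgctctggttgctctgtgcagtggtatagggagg
Mrps11, chr7:78782881-78783180, plus strand: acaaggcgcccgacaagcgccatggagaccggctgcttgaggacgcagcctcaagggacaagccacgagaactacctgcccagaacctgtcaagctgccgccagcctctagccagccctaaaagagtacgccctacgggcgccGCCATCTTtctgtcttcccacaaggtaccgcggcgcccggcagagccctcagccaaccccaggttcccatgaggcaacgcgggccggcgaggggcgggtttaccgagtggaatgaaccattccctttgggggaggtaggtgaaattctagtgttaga
Mrps12, chr7:28741772-28742071, minus strand: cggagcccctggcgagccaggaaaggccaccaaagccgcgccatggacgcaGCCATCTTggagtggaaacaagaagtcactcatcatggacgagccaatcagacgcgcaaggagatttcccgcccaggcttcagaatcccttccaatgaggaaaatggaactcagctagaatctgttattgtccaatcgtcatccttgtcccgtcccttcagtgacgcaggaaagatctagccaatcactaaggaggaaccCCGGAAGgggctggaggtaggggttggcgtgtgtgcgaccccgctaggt
The Mrps18b window holds GCATGCGC at 2 places and CCGGAAG on the opposite strand, and that of Mrps18c holds CCGGAAG on the opposite strand. The Mrps11 window holds AAGATGGC on the opposite strand. The Mrps12 window holds CCGGAAG on the strand of the gene and AAGATGGC on the opposite one.

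Some members started close to a gene read the other way. Within 300 bases, 20 of the 67 members with a window had such a neighbour, in 19 pairs. The share over all genes was not computed, so this count cannot be read as a trait of the members. In 15 pairs the neighbour was no member and both genes were at 1 FPKM or more. The member had the higher level in 14 of the 15, the exception being Mrpl32 (79.0 and 88.7 FPKM) beside the proteasome gene Psma2 (124 and 138 FPKM). The member's log2 ratio was above its neighbour's in 12 of the 15, with a median of 0.17 for members and -0.12 for neighbours. In 5 pairs both were higher in Null, in 5 both were lower, and in 5 the member was higher and the neighbour lower. No pair had a lower member beside a higher neighbour. Scaled to the same sum, the member's ratio was above its neighbour's in 11 pairs, and both genes were lower in 9, and with quantile normalization it was above in 10.

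Mrpl46 and Mrps11, 1 gene of each subunit with starts 42 bases apart, had ratios of 0.13 and 0.18. Their levels were 48.5 FPKM in the WT pool and 53.1 FPKM in the Null pool for Mrpl46, and 34.2 and 38.9 FPKM for Mrps11. The members of this pair were thus alike. Mrps12 (-0.14) started 147 bases from Sars2 (-0.46), which charges mitochondrial transfer RNA with serine, and both were lower in Null. Mrpl43 (-0.06) lay beside the mitochondrial DNA helicase gene Twnk, listed as Peo1 (-0.30).

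Other pairs were unlike. Mrpl14 (0.67) lay 131 bases from Tmem63b, at 19.9 FPKM in the WT pool and 14.8 FPKM in the Null pool (-0.40), the widest gap of the 15. Mrps18c (0.59) lay beside the helicase gene Helq, at 2.26 and 2.14 FPKM (-0.06). Mrpl18, at 95.7 and 133 FPKM (0.47), lay beside the chaperonin gene Tcp1, at 89.0 and 84.0 FPKM (-0.08). In these 3 pairs the member was higher in Null and the neighbour lower. Mrpl49 (0.25) beside Fau (0.47), which encodes a cytosolic ribosomal protein, had the lower ratio of its pair. Whether the authors' counting used strand is not given in the sources used here.

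**Figure D4:**
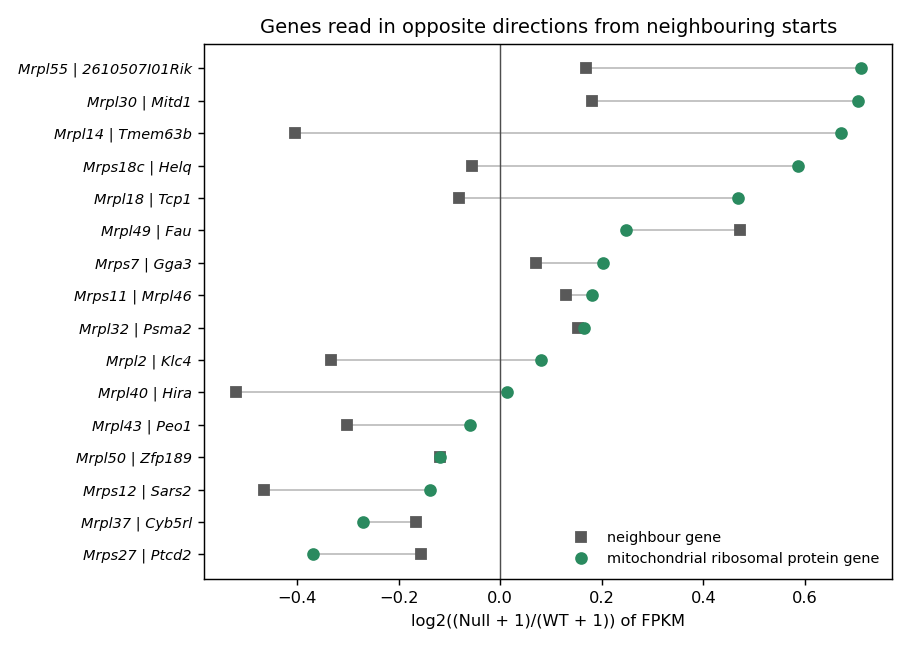
Log2 ratio of Null to WT of mitochondrial ribosomal protein genes (circles) and of the neighbour gene whose start lies within 300 bases on the opposite strand (squares), for the pairs with both genes at 1 FPKM or more; Mrps11 and Mrpl46, both members, are drawn as 1 pair. The circle lies right of the square in 12 of the 15 pairs whose neighbour is no member.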

How the data were processed

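Libraries of poly(A) RNA were prepared with the TruSeq RNA kit for a HiSeq instrument, per the labels' protocols. The submitters' processing notes name BWA, CASAVA, DESeq, edgeR, TopHat and the build mm9, without a role or version. The authors deposited FPKM in a single column for each genotype, per the file headers, so libraries of a genotype were pooled or averaged. The microRNA values, headed RPM, are a signal deposited by the authors, used only to check the labels of the microRNA libraries. A planned comparison of ratio with protein length was not run, as no protein table was used here.

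Log2 ratios with a pseudocount of 1 FPKM were computed in Python 3.11.15 with pandas 2.3.3 over genes that averaged 1 FPKM or more, and the calculation was tested on simulated data. Lists were matched by symbol, with older symbols taken from RefSeq. Alternatives were pseudocounts of 0.1 and 5 FPKM, filters, scalings and a 2-fold limit. The members, lists and alternatives were chosen with earlier results of these data known. Genes named were the 8 highest and 8 lowest ratios, the 5 highest and 5 lowest levels, members of known role and the 3 highest and 3 lowest of each other list, and other genes named were chosen after their values were seen.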

Additional observations from a re-analysis of the deposited data

How the results depend on the processing

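Of the 54 recomputed values for the members as a whole, 45 moved by less than 0.1 on the log2 scale or, for counts, by no more than 1.5 times. Many of these could hardly move, so that count is no measure of stability. A filter at 5 FPKM kept the same 75 members, no filter added only Mrpl23, and centring shifted all ratios alike. The values that moved further came from same-sum scaling, quantile normalization and the 2-fold limit. The median over members ran from 0.00 to 0.22. With the columns scaled to the same sum the medians were 0.00112 for all members and 0.0222 for the large subunit. That of the small subunit was -0.00303, the opposite sign. A downward shift is by construction of that setting, in which the median of all genes is -0.19. By 1.5-fold or more, 1 member (1.33%) was higher there and 2 (2.67%) were lower, beside 4.56% and 15.8% of all genes. With quantile normalization 2 members (2.67%) were higher by 1.5-fold or more, beside 7.29% of all genes. The small subunit median was 0.0684 there and the difference between subunits 0.126, and the cause was not tested. With a limit of 2-fold 0 members were higher and 0 lower, beside 2.17% and 1.65% of all genes. Other pseudocounts and filters gave 10 to 12 members higher by 1.5-fold or more, beside 4.59% to 10.3% of all genes. Single members moved by 0.1 or more in 114 of 525 values, 7 settings for each of 75 members. All 75 moved by that much with the columns scaled to the same sum, and the remaining such values were with quantile normalization. No member moved by that much in the other settings. The sign of the ratio changed for 25 members with the columns scaled to the same sum and for 11 with quantile normalization, none of them past 1.5-fold with FPKM as deposited, and for 0 in the other settings. No paired analysis was possible because the 3 libraries of a genotype were deposited as 1 combined column, and for the same reason no library could be left out. Depth is unknown, so the counting error of a single gene cannot be given.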

Other observations

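Genes that copy and transcribe mitochondrial DNA, which holds the genes for ribosomal RNA, were higher in Null for 6 of 10, and their median log2 ratio was 0.10, or -0.10 with the columns scaled to the same sum. Ssbp1, which binds single-stranded DNA, was at 18.1 FPKM in the WT pool and 25.5 FPKM in the Null pool (0.47), Tfb2m, a transcription factor, at 8.32 and 9.81 FPKM (0.21), and the entry Mterf at 0.864 and 1.92 FPKM (0.65). The RNA polymerase Polrmt was lowest at 14.3 and 11.2 FPKM (-0.33), followed by the helicase Twnk (-0.30) and the topoisomerase Top1mt (-0.22). Tfam, which packs mitochondrial DNA, was at 15.9 and 16.3 FPKM (0.03).

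Of 11 regulators of mitochondrial genes 8 were higher in Null, with a median of 0.16, or -0.02 with the columns scaled to the same sum. Gabpa was at 19.8 FPKM in the WT pool and 23.9 FPKM in the Null pool (0.27), Yy1 at 22.5 and 27.0 FPKM (0.25) and Nrf1 at 4.27 and 5.13 FPKM (0.22). The coactivators Ppargc1a (15.5 and 13.2 FPKM, -0.21), Ppargc1b (-0.15) and Pprc1 (-0.09) were the 3 lower ones. Myc, at 1.99 and 6.38 FPKM (1.30), was the 1 regulator past 1.5-fold.

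The deposited mRNA table opens with 727 genes in falling order of the ratio of Null to WT, before the other genes in order of symbol. Of these, 331 have the higher value in Null, with a ratio of at least 1.64, and 396 the lower, with a ratio of at most 0.614. Among them are 4 members, Mrps14, Mrpl52, Mrps21 and Mrpl55, the 4 with the highest ratios, or 5.26% of the 76, beside 3.22% of all genes. The sources used here do not say what set these genes apart, and 512 genes further down with a mean of at least 1 FPKM had ratios as high as 1.64.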
